A study of Mus musculus with 32 samples.

Results

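The cytosolic ribosomal protein genes are the protein-coding genes whose symbol is Rpl, Rps or Rplp followed by a number, together with Rpsa. The S6 kinases, the mitochondrial ribosomal proteins and pseudogenes were left out by name or biotype. This rule found 84 members among the 47643 gene IDs of the count table, 32 of the small subunit and 52 of the large subunit, spread over 19 chromosomes. A further 5 names fit the pattern but are annotated as pseudogenes (Rps4l, Rps3a2, Rps3a3, Rps12l1 and Rpl6l) and were not counted as members. The rule uses names only and no measured value.

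RNA was measured in liver and in the white fat pad of the epididymis (eWAT) of male C57BL/6 mice, 10 weeks old, over 7 days of treatment and diet. Mice drank either corticosterone (Cort), the main glucocorticoid hormone of rodents, or the ethanol vehicle without it (Veh), and ate a whey-based diet with 20% of its kcal from protein (NPD) or one with 60% (HPD), matched in calories by less carbohydrate. All groups were of 1 strain and sex, and the Veh mice drank ethanol too. Each of the 4 groups of a tissue held 4 libraries, 32 in all. Liver Veh HPD replicate 4 was left out of the liver groups by the rule that defined the gene set, so that this group held 3 libraries. The labels do not say which libraries came from the same animal or cohort, so p-values measure the spread between these libraries.

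The libraries were made with QuantSeq, a method that sequences only the 3′ ends of mRNAs, and counts therefore do not grow with transcript length. The deposited values are raw counts for each Ensembl gene, 8933307 to 18057936 per library. Levels are given as CPM, the count scaled to one fixed library total, after correction with TMM factors, which allow for differences in composition. Folds are log2 values from edgeR's quasi-likelihood test with their standard error (SE), and a gene was called when its Benjamini-Hochberg adjusted p over all genes tested was under 0.05. The tissue labels held: the summed level of 12 adipocyte markers was 38564 to 64628 CPM in eWAT and 289 to 918 CPM in the 15 liver libraries used, and that of 12 hepatocyte markers was 917 to 3999.8 CPM in eWAT and 100266 to 286231 CPM in liver. 3 libraries stood apart: liver Veh HPD replicate 4, with 59513 CPM of hepatocyte markers and 13722 counts of H19 where every other liver library had 242 or fewer, and liver Cort HPD replicate 1, with 286231 CPM of hepatocyte markers, the lowest TMM factor in liver (0.754) and 42.2% of its counts in 10 genes, and eWAT Cort HPD replicate 4, which held 10806 CPM of epididymis and testis markers, where every other eWAT library held 7.05 or less.

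Each cytosolic ribosome is built of a small subunit, which decodes the mRNA, and a large subunit, which joins amino acids into protein. The proteins of both subunits are needed in equal numbers, and their mRNAs carry a tract of pyrimidines at the very 5′ end (the TOP motif) through which the kinase mTORC1 and the RNA-binding protein Larp1 adjust their translation and stability together. Hepatocytes, which make most plasma proteins, are rich in ribosomes. Some members have a paralog of similar sequence, such as Rpl22l1, which can take the place of Rpl22 in the ribosome, and Rpl7l1, named after Rpl7.

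The first bases of the transcripts are where these genes are known to resemble each other, so the annotated start sites of RefSeq (build GRCm38.p6) were searched in windows of 30 bases, 10 before the start and 20 from it. The motif was a C followed by at least 4 bases that are each C or T, on the gene's own strand, with the C within 5 bases of the annotated start. It was found in 29 of the 64 members that matched a promoter by symbol (45.3%), against 21.2% of all 27025 genes of the table. Of the windows themselves, 40.8% of the 76 of members and 18.3% of all held it. Of the translation factors whose mRNAs are also of the TOP kind, 6 of 13 had it, and of the mitochondrial ribosomal proteins 17 of 69 (24.6%). The windows of the gene with the third highest level, Rpl37, and of 3 of the 7 members tied for the most comparisons with a call (3 each), those with the smallest p in any comparison, follow with the motif in capitals.
Rpl37 (chr15:5116603-5116632, plus strand): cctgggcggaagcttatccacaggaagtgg
Rpl7l1 (chr17:46782637-46782666, minus strand): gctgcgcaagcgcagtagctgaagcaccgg
Rpl22l1 (chr3:28805498-28805527, plus strand): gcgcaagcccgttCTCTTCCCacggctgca
Rpl10a (chr17:28328461-28328490, plus strand): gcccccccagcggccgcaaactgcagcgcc
Of these 4 windows, that of Rpl22l1 held the motif, 8 bases long. Of the 4 tied members not shown, Rpl19, Rps9 and Rpl28 had it and Rplp0 did not. A window without it says only that these letters are not near this annotated start, and the choice of start site moves the window.

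Of the 84 members, 81 had enough counts to be tested in each tissue. The 3 others are paralogs: Rpl10l had no count in any library, Rpl39l had 75 counts in all and Rpl3l, a paralog of Rpl3 known from striated muscle, had 441. Rpl3l stood at 23.4 CPM in eWAT Cort HPD replicate 4, the library with the epididymis and testis markers, and at 0.739 CPM or less in the other 15 eWAT libraries. The part of those markers in its level was not tested. The members differed widely in level. On the mean over the 8 groups, Rplp1 of the stalk that recruits elongation factors was highest at 1357 CPM, followed by Rps14 (925 CPM) and Rpl37 (779 CPM). Rps6, the substrate of S6 kinase, lay near the low end at 5.44 to 18.1 CPM in the 31 libraries, and Rpl24 at 2.07 to 7.05 CPM. Levels of single members are uncertain where their 3′ end is shared. Of the 50-base words in the last 300 bases of a member's transcripts, a median of 51.2% also occur in transcripts of other genes. Matches on either strand were counted, and the biotypes of those genes were not tallied. For 44 members the shared part is over 50%. The median level was 159.8 CPM for those 44 and 273 CPM for the other 40.

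Summed over all members, ribosomal protein reads made up 2.01% to 3.25% of the counts of an eWAT library and 1.43% to 2.999% of a liver library. In liver the percentages were 2.85, 2.999, 2.14 and 2.29 in Veh NPD, 2.08, 2.32 and 2.05 in Veh HPD, 1.84, 1.77, 1.92 and 1.95 in Cort NPD, and 1.70, 1.43, 1.44 and 1.496 in Cort HPD. Every Cort liver library was below every Veh liver library on this measure, and every Cort HPD library below every Cort NPD library. On the scaled level the 4 Cort NPD livers (17732 to 18768 CPM) were all below the 4 Veh NPD livers (19932 to 28444 CPM). The Cort HPD livers held 22612, 14519, 15780 and 15274 CPM. On this scale the order of the Cort groups did not hold, since the first was above all 4 Cort NPD livers. It also overlapped the Veh HPD livers (18761, 23415 and 18553 CPM). That library is replicate 1, whose TMM factor of 0.754 raises its scaled level.

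**Figure D1:**
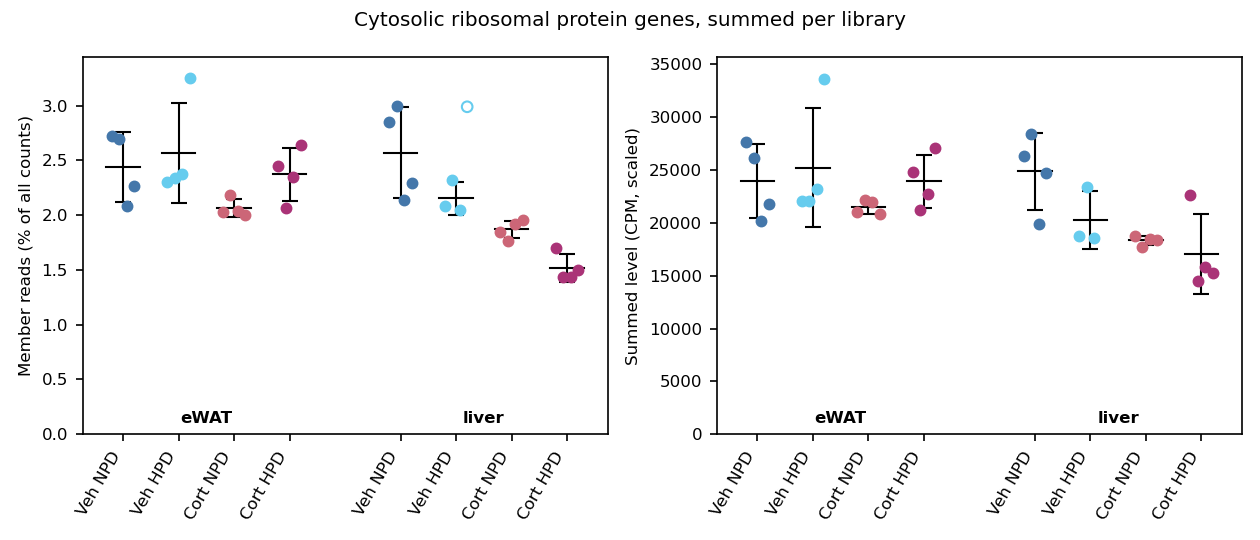
Summed level of the 84 members in each library (points), as percent of all counts (left) and as CPM after TMM scaling (right), with group mean and SD; the open circle is liver Veh HPD replicate 4, outside the group mean. In liver the Cort points lie below the Veh points as percent of counts, while eWAT Veh HPD replicate 4 (3.25%) lies above every other eWAT library.

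In eWAT the sums overlapped between all groups. They were 27666, 26124, 20211 and 21832 CPM in Veh NPD, 22058, 22048, 23185 and 33642 CPM in Veh HPD, 21010, 22148, 21989 and 20872 CPM in Cort NPD, and 24768, 21257, 22698 and 27048 CPM in Cort HPD. Veh HPD replicate 4 stood apart, and it also had the highest sum of adipocyte markers (64628 CPM). The part of that library's composition in the result was not tested. In whole tissue, fewer cells of a type and less RNA per cell cannot be told apart.

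In the liver of NPD mice, Cort lowered ribosomal protein genes of both subunits. Of the 81 members tested, 21 were called lower and none higher, where 5.79% of all 12391 genes tested were called lower and 6.84% higher. All 81 folds were below 0, with a median of -0.45 against -0.01 over all genes. Of the small subunit, 11 of 32 were called lower (median -0.48), and of the large subunit 10 of 49 (median -0.44). No member had a higher level even at an unadjusted p under 0.05, and 55 had a lower one. DESeq2 called 28 members and limma voom 21, all lower. The levels of the 2 groups did not overlap for 31 of 81 members, 38.3%, against 9.09% of all genes with Cort lower. With library totals in place of TMM factors 29 were called, again with all 81 folds below 0. With liver Veh HPD replicate 4 added to the fit 15 were called, with a median of -0.45.

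Rpl10a (chr17:28328471-28331033, plus strand, GRCm38), the protein of the L1 stalk of the large subunit, had the smallest p. It was measured at 20.3, 17.7, 12.7 and 19.3 CPM in Veh NPD and at 7.16, 8.97, 10.8 and 9.97 CPM in Cort NPD. The groups did not overlap, and the fold was -0.93 (SE 0.18, edgeR adjusted p = 0.00136). Its 3′ end shares 70.2% of its words with other transcripts. Rpl37a (chr1:72711290-72713813, plus strand), a zinc-finger protein of the large subunit, stood at 282, 337, 280.2 and 421 CPM in Veh NPD and 202, 214, 185 and 176 CPM in Cort NPD. It fell by 0.76 on the log2 scale (SE 0.15, edgeR adjusted p = 0.00169), again without overlap, and only 4.38% of its 3′ words are shared.

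Rpl19 (chr11:98026710-98030492, plus strand), which forms a bridge between the subunits, was at 35.3, 46.5, 23.2 and 33.5 CPM in Veh NPD. In Cort NPD it was at 17.8, 18.1, 20.2 and 19.3 CPM, below all of these, with a fold of -0.87 (SE 0.17, edgeR adjusted p = 0.00169). In the small subunit, the X-linked Rps4x (chrX:102184941-102189394, minus strand) was at 72.2, 80.4, 53.4 and 93.7 CPM in Veh NPD and at 41.3, 46.3, 44.7 and 41.7 CPM in Cort NPD. Its fold was -0.78 (SE 0.17, edgeR adjusted p = 0.00435), with every Cort library below every Veh library. Rps27 (chr3:90212522-90213651, minus strand), a zinc-finger protein of the small subunit, held 363, 467, 299 and 409.6 CPM in Veh NPD and 261, 211, 199 and 169.8 CPM in Cort NPD. It fell by 0.87 (SE 0.20, edgeR adjusted p = 0.00579) and the groups did not overlap.

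The other 16 called members included, by rising p, Rps9, Rpl38, Rpl22l1, Rpl37, Rps16, Rpl36, Rpl7l1, Rps15, Rpl3, Rps29, Rpl12, Rps21 and Rps15a, with folds between -0.69 (Rpl22l1) and -0.46 (Rps15a). The calls depended on single libraries. Leaving out 1 library at a time gave 7 to 37 called members: 7 without Veh NPD replicate 2, 10 without Cort NPD replicate 3, 13 without Cort NPD replicate 4 and 37 without Cort HPD replicate 1, which is in neither group but shares the estimate of the spread. Rpl10a, Rpl19, Rpl37a, Rpl38, Rps27, Rps4x and Rps9 were called in all 15 of these fits.

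**Figure D2:**
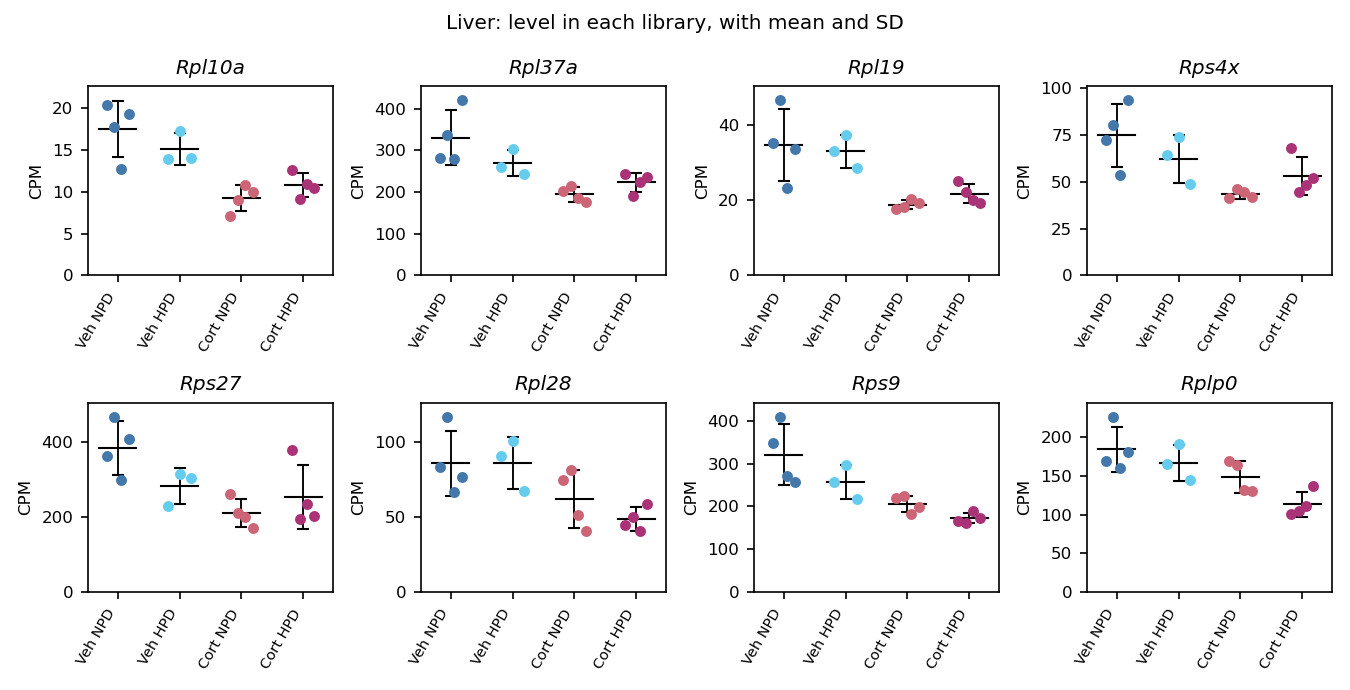
Level in CPM (TMM-scaled) of 8 members in each of the 15 liver libraries, with group mean and SD: the 5 called with the smallest p in Cort against Veh on the NPD, and Rpl28, Rps9 and Rplp0, which were called on the HPD. For Rpl10a the Cort NPD points lie at 7.16 to 10.8 CPM and the Veh NPD points at 12.7 to 20.3 CPM.

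Several members with well known roles were not called. The stalk proteins were Rplp0 at -0.31 (adjusted p = 0.2), Rplp1 at -0.26 (adjusted p = 0.28) and Rplp2 at -0.45 (adjusted p = 0.15). Rpl5 and Rpl11, which bind the 5S RNA and can stabilise p53 when ribosome assembly fails, were at -0.33 (SE 0.34) and -0.44 (SE 0.21). Rpsa, which is also a laminin-binding protein, was at -0.36 (SE 0.17), and Rps27a, which is made fused to ubiquitin, at -0.62 (SE 0.38). Rps6 ranged from 5.71 to 15.3 CPM in Veh NPD and from 5.44 to 10.6 CPM in Cort NPD, which overlap.

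On the HPD, Cort lowered 4 members in liver, Rpl28, Rps9, Rplp0 and Rpl19, and raised none. This is 4.94% of the 81, close to the 5.14% of all genes called lower (4.75% were called higher), so that the number of calls does not set the members apart. Their folds did lean downwards: 75 of 81 were below 0, with a median of -0.26 against -0.0042 over all genes, and 15 had an unadjusted p under 0.05, all lower. DESeq2 called 5 and limma voom 4, all lower. The levels of the groups did not overlap for 14 members (17.3%), against 10.5% of all genes.

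Rpl28 (chr7:4792874-4795066, plus strand), a large subunit protein, was at 90.7, 101 and 67.3 CPM in Veh HPD and at 44.9, 50.4, 40.8 and 59.0 CPM in Cort HPD. The groups did not overlap, and the fold was -0.82 (SE 0.23, edgeR adjusted p = 0.0239). Rplp0 (chr5:115559467-115563727, plus strand), the base of the stalk and a gene often used to normalise PCR, was at 165, 191 and 145 CPM in Veh HPD. It was at 101, 105, 111 and 137 CPM in Cort HPD, below all 3, with a fold of -0.56 (SE 0.16, edgeR adjusted p = 0.0341). Rps9, a small subunit protein, was at 257, 297 and 218 CPM against 167, 162, 189 and 174 CPM, and Rpl19 at 33.0, 37.4 and 28.6 CPM against 25.2, 22.2, 20.1 and 19.4 CPM. Both fell without overlap, Rps9 by 0.57 (SE 0.17, edgeR adjusted p = 0.0331) and Rpl19 by 0.60 (SE 0.18, edgeR adjusted p = 0.0403).

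This comparison depended on the scaling and on single libraries. With library totals, 31 members were called lower and the median was -0.51, while the median of all genes went to -0.24. Among all called genes, the share of lower calls went from 52.0% to 82.2%. Without Cort HPD replicate 1, 11 members were called, the median was -0.42 and all 81 folds were below 0, but only 2 of the 4 calls, Rpl19 and Rps9, were kept. The number was 0 without Veh HPD replicate 1 or 2, 1 without Cort HPD replicate 2 or 3, and 2 without Cort HPD replicate 4. With liver Veh HPD replicate 4 in its group it was 4, at a median of -0.24. The share of all genes called in these fits is not given.

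**Figure D3:**
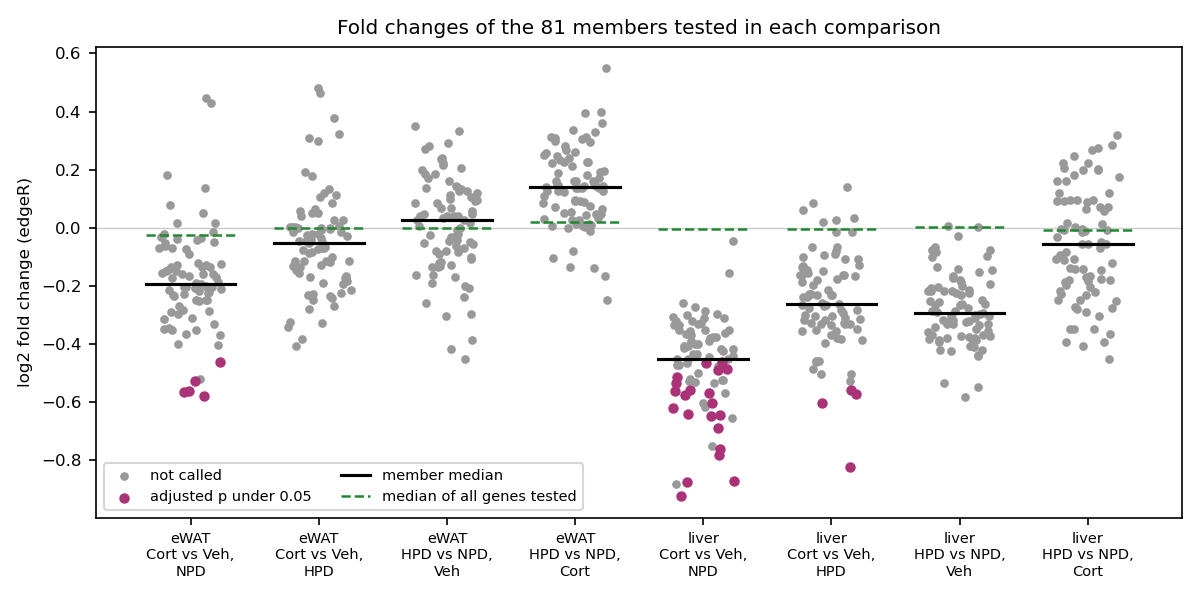
Log2 folds (edgeR) of the 81 members in 8 comparisons, each point 1 member, with called members coloured, the members' median as a solid line and the median of all genes tested as a dashed line. In liver Cort against Veh on the NPD all points lie below 0 around a median of -0.45, and 21 are called.

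Sums of cell type markers moved with Cort in liver, and in them cell number and RNA per cell cannot be told apart. The sum of 12 macrophage markers was 319 to 468 CPM in the 7 Veh livers and 160.4 to 366 CPM in the 8 Cort livers. The sum of 12 T and NK cell markers was 5.13 to 10.5 CPM in Veh and 0.930 to 3.001 CPM in Cort, and that of hepatocyte markers 100266 to 142467 CPM in Veh and 125145 to 286231 CPM in Cort. On the HPD the sum of 11 red blood cell markers was 1994 to 3543 CPM in Veh and 5344 to 7705 CPM in Cort, with 4 of 10 tested called higher and 1 lower, and it was 1388 to 3577 CPM in Cort NPD. The sum of 12 endothelial markers was 176 to 193 CPM in Veh HPD and 114 to 139.6 CPM in Cort HPD, with 4 of 12 called lower, and 167 to 239 CPM in Cort NPD. Of all genes, 4.75% were called higher and 5.14% lower with Cort on the HPD. The sum of 12 B cell markers was 4.03 to 21.4 CPM in Veh and 0.984 to 4.48 CPM in Cort. All markers of these lists were detected in liver apart from the B cell marker Cd79a. The part of these shifts in the fall of ribosomal protein mRNAs was not tested. Members were also divided by their sequence, without a test of the difference. On the NPD, 10 of the 44 members with over 50% shared words were called (median -0.41), and 11 of the other 37 (median -0.45). Members with and without the start-site motif had medians of -0.47 (8 of 29 called) and -0.43 (7 of 32 called).

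No member was called for diet in liver by edgeR. In Veh mice, HPD against NPD gave 0 called of 81, where 0.0646% of all genes were called lower and 0.105% higher, and DESeq2 and limma voom also called 0. The folds leaned downwards, 79 of 81 below 0 with a median of -0.29 against 0.0038 over all genes, and 9 had an unadjusted p under 0.05, all lower. The levels of the 2 groups did not overlap for 3 members, all lower on the HPD (4.7% of all genes). With Veh HPD replicate 4 in its group 0 were called and the median was -0.28. In Cort mice edgeR again called 0 of 81, where 2.8% of all genes were called lower and 3.08% higher, with 5 lower at an unadjusted p under 0.05 and a median of -0.057. DESeq2 called Rpl13, a large subunit protein, and limma voom none. With library totals 5 were called lower, Rpl13, Rps25, Rps12, Rplp1 and Rplp0, at a median of -0.26 against -0.18 over all genes. The share of lower calls among all called genes then went from 47.6% to 76.8%. Leaving out Cort HPD replicate 1 gave 2 calls, Rps12 and Rps19, at a median of -0.22.

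The test of whether the Cort effect in liver differed between the diets called 0 of 81 members by edgeR, DESeq2 and limma voom, where 0.0565% of all genes were called in each direction. The median of the difference was 0.22, towards a smaller fall on the HPD, with 4 members at an unadjusted p under 0.05. The largest differences among the named members were Rps27 at 0.71 (SE 0.30) and Rpl22l1 at 0.68 (SE 0.28). The median was 0.040 without Cort HPD replicate 1. With library totals it was -0.018, where that of all genes was -0.22. Liver had more calls on the NPD, but a difference between the diets is not shown.

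**Figure D4:**
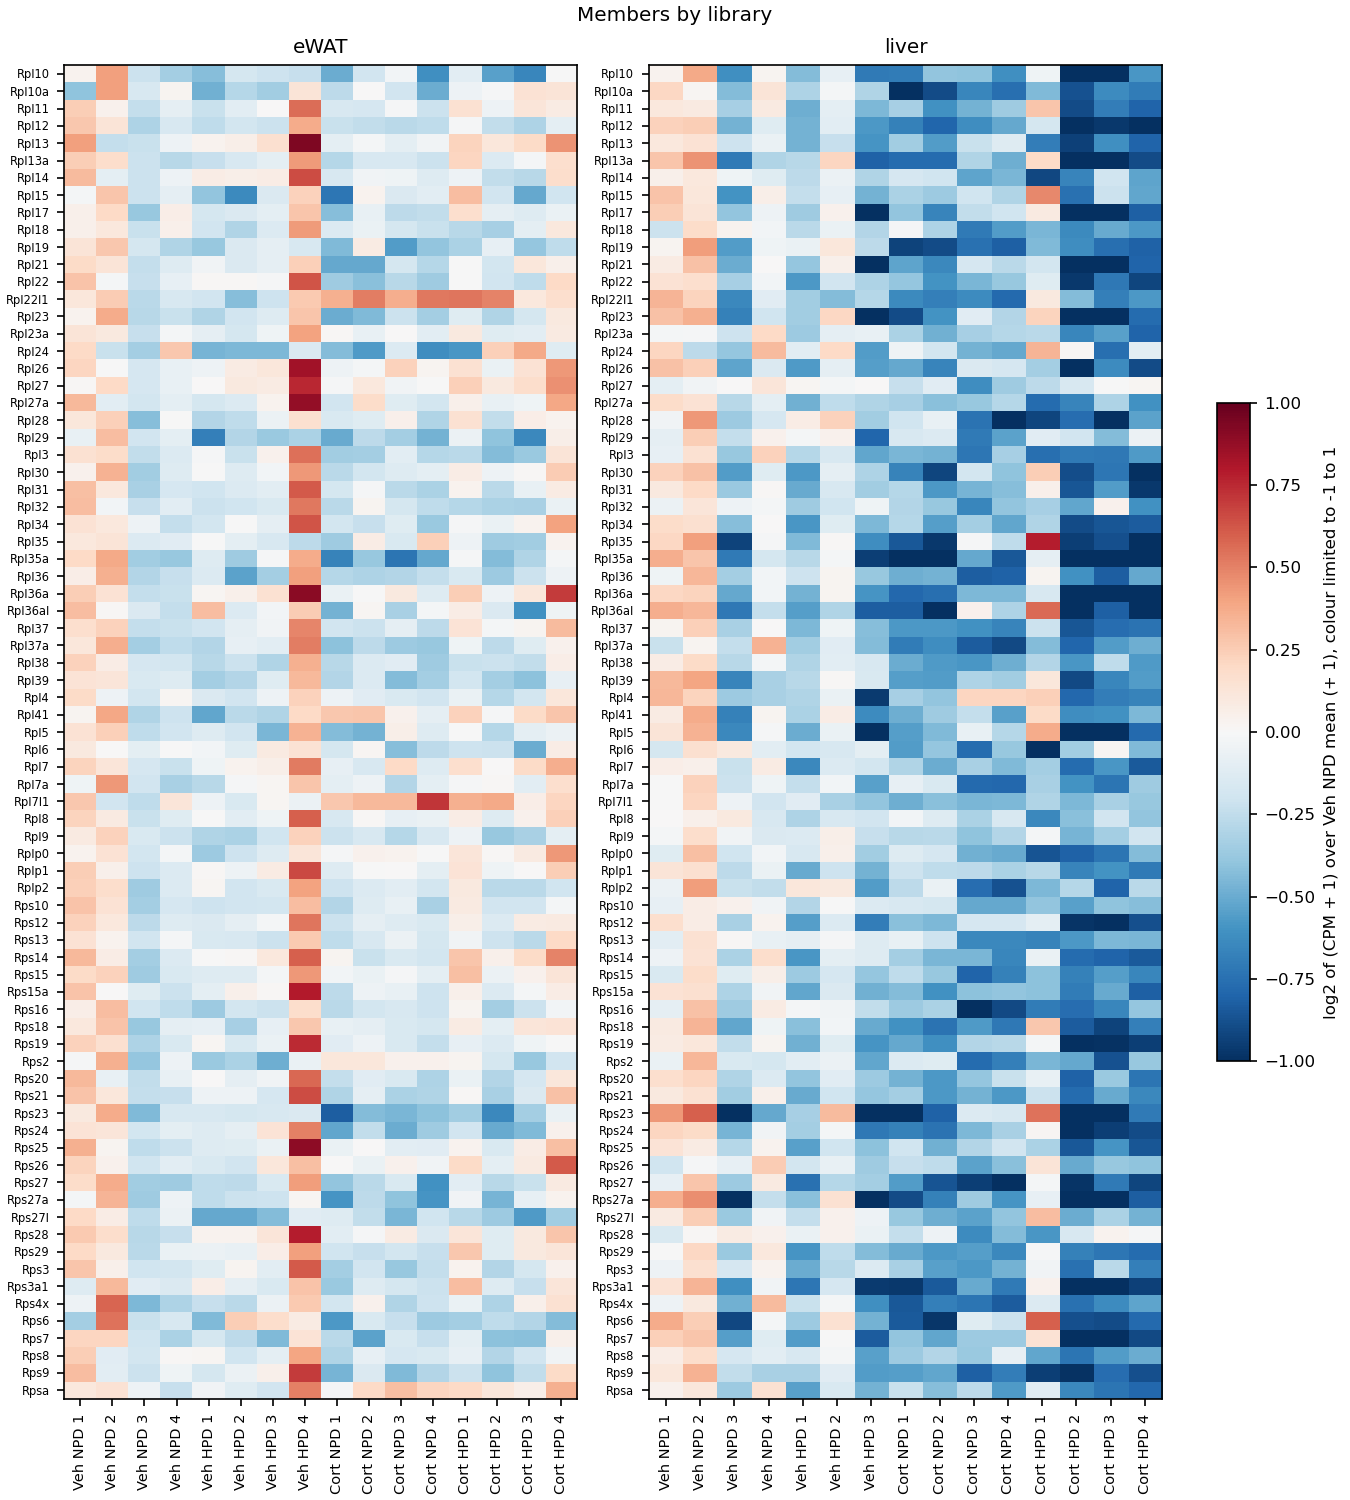
Level of 77 of the tested members (1 per line) in the 16 eWAT and 15 liver libraries (1 per column) as log2 of CPM plus 1 over the Veh NPD mean of the tissue plus 1; blue is lower and red higher, with the colours limited to -1 and 1. Whole columns shift together, as in eWAT Veh HPD replicate 4 (median 0.39) and liver Cort HPD replicates 2 to 4 (medians -0.70 to -0.77).

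In eWAT the effect of Cort on these genes was small. On the NPD, 5 of 81 members were called lower and none higher, where 3.93% of all 15187 genes were called lower and 4.05% higher. Rps23, Rpl35a and Rps27a were among them. The median over the members was -0.19 against -0.024 over all genes, with 73 of 81 below 0 and 13 lower and 2 higher at an unadjusted p under 0.05. DESeq2 called 7 members and limma voom 2, all lower. The levels of the groups did not overlap for 6 members lower with Cort (7.39% of all genes) and 2 higher (7.55%).

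Rps23 (chr13:90922958-90924950, plus strand), a small subunit protein near the decoding centre, was at 110.0, 133, 75.1 and 91.6 CPM in Veh NPD and at 57.5, 75.5, 74.5 and 76.9 CPM in Cort NPD. The groups overlapped slightly, since the third Veh library was below 2 of the Cort libraries, and the fold was -0.53 (SE 0.15, edgeR adjusted p = 0.026). Rps27a was at 92.1, 118, 72.6 and 89.8 CPM in Veh NPD and at 61.7, 77.5, 70.2 and 61.4 CPM in Cort NPD. These overlapped too, and the fold was -0.46 (SE 0.14, edgeR adjusted p = 0.0419).

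Rpl35a, of the large subunit, had a fold of -0.58 (SE 0.18, edgeR adjusted p = 0.0404). It was at 53.5, 60.7, 36.4 and 35.5 CPM in Veh NPD and 28.9, 35.5, 27.7 and 32.4 CPM in Cort NPD, where the nearest libraries of the 2 groups round to the same value. None of the 5 calls held in all 16 fits that left out 1 library. The number of calls ran from 1 to 9: 1 without Veh NPD replicate 2 (Rpl22l1, higher) or Cort NPD replicate 1, 2 without Veh NPD replicate 1 (1 of them Rpl7l1, higher) or Cort NPD replicate 3 or 4, and 9 without Veh HPD replicate 4, of which Rpl22l1 was higher. With library totals 9 were called lower, and the share of lower calls among all called genes went from 49.3% to 63.9%.

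On the HPD, 0 members were called with Cort in eWAT by edgeR or limma voom, where 2.63% of all genes were called lower and 3.46% higher. DESeq2 called Rpl22l1 higher. At an unadjusted p under 0.05 there were 4 higher and 3 lower, and the median was -0.051. Veh HPD replicate 4 decides its sign. Without that library the median was 0.10, 60 of 81 folds were above 0 and 3 members were called higher, Rpl22l1 at 0.62, Rpl41 at 0.54 and Rplp0 at 0.41. The share of all genes called in that fit is not given. Rpl41, a very short protein of the large subunit, was at 137, 164, 160.2 and 227 CPM in Veh HPD and at 232, 196, 226 and 240.3 CPM in Cort HPD. Its groups overlapped by the fourth Veh library alone. Without Cort HPD replicate 4, Rpl22l1 was called higher and Rps24, a small subunit protein, lower.

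No member was called for diet in eWAT under either treatment. By edgeR, DESeq2 and limma voom 0 of 81 were called in Veh mice, where 0.0132% of all genes were called higher and 0.0461% lower, and 0 in Cort mice, where 0.204% were called higher and 0.283% lower. At an unadjusted p under 0.05, 1 member was higher and 4 lower in Veh mice, and 8 were higher in Cort mice. The median was 0.025 in Veh mice and -0.10 without Veh HPD replicate 4. In Cort mice it was 0.14, with 74 of 81 above 0 (0.072 without Cort HPD replicate 4), and 9 members were higher on the HPD without overlap (3.02% of all genes). The Cort effect was not called different between the diets for any member by any of the 3 tools, with 3 at an unadjusted p under 0.05 and a median of 0.13 (0.29 without Veh HPD replicate 4). Across all genes that test called 0.00658% in each direction.

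Cell markers moved with Cort in eWAT as well. The sum of 12 stromal progenitor markers was 4467 to 5834 CPM in the 8 Veh libraries and 2784 to 3421 CPM in the 8 Cort libraries. The sum of 12 T and NK cell markers was 18.9 to 29.9 CPM in Veh and 3.74 to 10.2 CPM in Cort, apart from 103 CPM in Cort HPD replicate 4. The sum of 11 red blood cell markers was 12743 to 25958 CPM in Cort HPD, above the 5287 to 9316 CPM in Veh HPD (7 of 10 tested called higher) and the 3671 to 6535 CPM in Cort NPD (8 of 10). Of all genes, 3.46% were called higher in the first of these comparisons and 0.204% in the second. All markers of these lists were detected. Their part in the values of the members, the upward lean on the HPD in Cort mice included, was not tested.

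The paralogs Rpl22l1 and Rpl7l1 had positive folds with Cort in eWAT and negative ones in liver. In eWAT, Rpl22l1 (chr3:28805436-28807424, plus strand) was at 84.1, 93.0, 64.2 and 69.2 CPM in Veh NPD and at 99.4, 111, 100.3 and 112 CPM in Cort NPD, every Cort library above every Veh library. Its fold was 0.45 (SE 0.15, edgeR adjusted p = 0.06), just outside the threshold, and on the HPD 0.46 (SE 0.15, edgeR adjusted p = 0.059). In liver it was at 121, 111, 60.3 and 87.6 CPM in Veh NPD and at 60.5, 58.6, 61.0 and 55.0 CPM in Cort NPD. There it fell by 0.69 (SE 0.19, edgeR adjusted p = 0.017), with 1 Veh library among the Cort libraries, and on the HPD the fold was -0.015 (SE 0.20).

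Rpl7l1 (chr17:46773907-46782672, minus strand) was likewise higher in eWAT and lower in liver on the NPD, though called only in liver. In eWAT it was at 46.3, 33.4, 31.9 and 41.7 CPM in Veh NPD and at 46.5, 48.1, 48.3 and 63.5 CPM in Cort NPD, which did not overlap, with a fold of 0.43 (SE 0.14, edgeR adjusted p = 0.066). On the HPD it was at 36.9, 34.4, 39.0 and 36.7 CPM in Veh and 49.2, 50.02, 40.2 and 44.5 CPM in Cort, again without overlap (fold 0.32, SE 0.14, edgeR adjusted p = 0.21). In liver it was at 42.4, 49.5, 41.0 and 37.1 CPM in Veh NPD and at 29.9, 31.5, 30.7 and 30.8 CPM in Cort NPD. It fell there by 0.47 (SE 0.13, edgeR adjusted p = 0.0204) without overlap. On the HPD in liver it was at 39.3, 33.8 and 32.1 CPM in Veh and 34.3, 30.9, 33.7 and 32.4 CPM in Cort, which overlapped, with a fold of -0.10 (SE 0.14).

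The genes they are named after had folds below or near 0 in eWAT. Rpl22 was at -0.35 (SE 0.14) on the NPD and -0.24 (SE 0.14) on the HPD, and Rpl7 at -0.035 (SE 0.14) and 0.028 (SE 0.14). In liver on the NPD, Rpl22 was at -0.45 (SE 0.18) and Rpl7 at -0.39 (SE 0.15), neither of them called. Of the other paralogs, Rps27l had folds of -0.25 (SE 0.13) in eWAT and -0.45 (SE 0.17) in liver on the NPD, and Rpl36al of -0.19 (SE 0.18) and -0.50 (SE 0.40). No difference between a paralog and its namesake was tested.

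**Figure D5:**
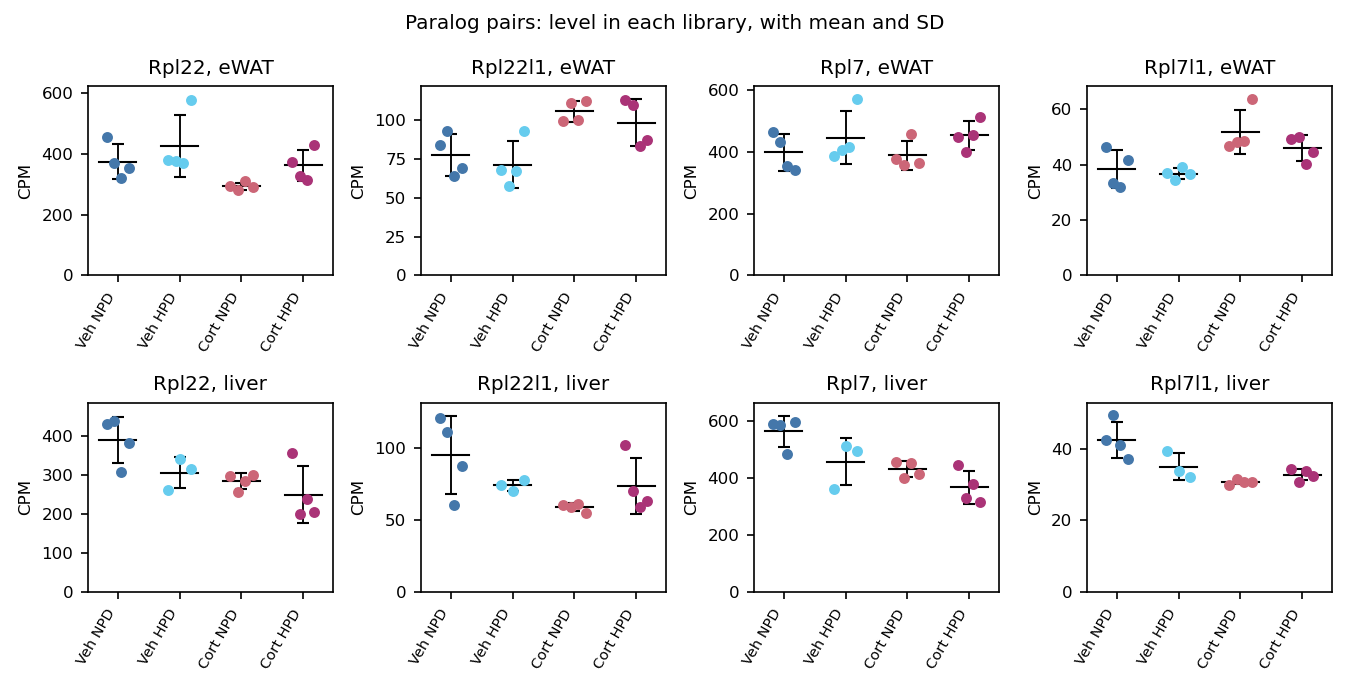
Level in CPM (TMM-scaled within each tissue) of Rpl22, Rpl22l1, Rpl7 and Rpl7l1 in each library of eWAT (top) and liver (bottom), with group mean and SD. In eWAT the Cort NPD points of Rpl22l1 (99.4 to 112 CPM) lie above its Veh NPD points (64.2 to 93.0 CPM), and in liver those of Rpl7l1 (29.9 to 31.5 CPM) lie below (37.1 to 49.5 CPM).

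Whether Cort acted differently on the members in the 2 tissues was tested directly, in a fit of the 31 libraries together, as the mean Cort effect of both diets in liver minus that in eWAT. Of 82 members tested (the 81 and Rpl3l), 6 had a more negative effect in liver and none a more positive one, where 3.88% of all 16482 genes were called in each direction. The 6 were Rpl7l1 at -0.65 (SE 0.13, edgeR adjusted p = 0.00118), Rpl22l1 at -0.80 (SE 0.18, edgeR adjusted p = 0.00372), Rplp0 at -0.59 (SE 0.14, edgeR adjusted p = 0.00525), Rpl10a at -0.73 (SE 0.19, edgeR adjusted p = 0.0126), Rpl28 at -0.64 (SE 0.19, edgeR adjusted p = 0.0297) and Rpl19 at -0.55 (SE 0.17, edgeR adjusted p = 0.0404). The median over members was -0.22, with 77 of 82 below 0 and 17 at an unadjusted p under 0.05, against -0.017 over all genes. DESeq2 called 7 and limma voom 5, all lower.

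The 6 did not all reach this difference in the same way. In eWAT, Rplp0 was at 0.015 (SE 0.12) on the NPD and 0.31 (SE 0.12) on the HPD, and neither fold was called, while in liver it was lower on the HPD. Rpl7l1 and Rpl22l1 had positive folds in eWAT and negative ones in liver on the NPD. The first 4 of the 6 were called in all 31 fits that left out 1 library. Rpl28 lost the call in 11 of them and Rpl19 in 13. The number of calls rose to 11 without eWAT Veh HPD replicate 4 or liver Cort HPD replicate 1. With library totals it was 14, all lower, and the share of lower calls among all called genes went from 49.96% to 61.1%.

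Set against untreated eWAT on the same diet, untreated liver held more ribosomal protein mRNA of most members with TMM scaling, but the direction rests on the scaling. Of 82 members, 73 were called higher in liver and 1 lower, where 29% of all genes were called higher and 33.7% lower, and the median was 1.10 against -0.26. Levels did not overlap for 66 members, all higher in liver (27.1% of all genes). With library totals, 20 were called higher and 18 lower, and the median was 0.087 against -1.28 over all genes, of whose calls 81.2% were then lower against 53.8%. Only the distance from other genes and the order among members are therefore read from these values.

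Within that order the members differed widely between the tissues. Rpl36al, a near copy of Rpl36a, had the highest fold, 2.69 (SE 0.33), and on the scale common to both tissues it was at 23.6, 19.2, 17.0 and 15.98 CPM in eWAT and 159.1, 152, 73.9 and 104 CPM in liver. Rps27l, a paralog of Rps27 known as a p53 target, had the smallest p, with a fold of 2.23 (SE 0.16, edgeR adjusted p = 4.08e-14) from 118, 109, 85.7 and 98.4 CPM in eWAT to 514, 561, 372 and 475 CPM in liver. Its namesake Rps27 was at 1.09 (SE 0.20). Next by p came Rpl34 at 1.87 (SE 0.18), Rpl7 at 1.55 (SE 0.15), Rpl37 at 1.62 (SE 0.17) and Rpl7l1 at 1.19 (SE 0.13).

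The stalk proteins differed from each other. Rplp1 was at 1159, 1024, 846 and 889.6 CPM in eWAT and 2450, 2441, 1850.5 and 2145 CPM in liver (fold 1.18, SE 0.16). Rplp2, its partner in the stalk, was at 648, 628, 430.4 and 501 CPM in eWAT and 340.0, 463, 301 and 299 CPM in liver, with overlap, and was the 1 member called lower (-0.65, SE 0.19, edgeR adjusted p = 0.00272). Rplp0 lay between them at 0.36 (SE 0.14), but with library totals the direction turned and its fold was -0.65 (edgeR adjusted p = 0.000159). The folds of Rpl19, Rpl32, Rpl6, Rpl35, Rpl29, Rpl39 and Rpl3l did not pass the test. Rpl7l1, Rplp1 and Rps27 lost their calls with library totals, with folds of 0.17, 0.17 and 0.066.

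Members rose and fell together between libraries of the same group. Over the 16 eWAT libraries, the correlation of 2 members' log2 levels after subtraction of the group means had a median of 0.72 over all pairs of the 81, 98.1% of them positive, against a median near 0 over pairs of all genes. Over the 15 liver libraries the median was 0.53, and 84.4% of pairs were positive. These points share library, depth and scaling, and the values are descriptions. The least coupled members were Rpl24 (mean correlation with the others 0.038) and Rpl7l1 (0.10) in eWAT, and Rpl6 (-0.34), Rps28 (-0.26) and Rpl8 (-0.21) in liver, and Rpl37 was the most coupled in liver (0.65). In liver Cort HPD replicate 1, Rpl6, Rps28 and Rpl8 were each below the rest of the group (Rpl6 at 15.3 CPM against 25.7 to 35.7 CPM). The summed level of all members was highest of the group there. The part of that library in these negative values was not tested.

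The other genes of the translation apparatus were read from lists. Over all genes tested with Cort in liver, 5.79% were called lower and 6.84% higher on the NPD, and 5.14% and 4.75% on the HPD. In eWAT 3.93% were called lower and 4.05% higher on the NPD, and 2.63% and 3.46% on the HPD. For diet in Cort livers 2.8% were called lower and 3.08% higher. Calls within a list are given as values of single genes, not as results about the list. Of 76 mitochondrial ribosomal proteins tested in liver, 8 were lower with Cort on the NPD (median -0.17), led by Mrpl14 at -0.57 (SE 0.14), Mrps31 at -0.68 (SE 0.17) and Mrpl1 at -0.56 (SE 0.15). On the HPD 0 were lower and 1, Mrps33, was higher (median 0.08). In Cort mice 5 of the 76 were higher on the HPD than on the NPD, led by Mrpl22 at 0.77 (SE 0.16) and Mrps28 at 1.43 (SE 0.36), where 3.08% of all genes were called higher. The difference from the cytosolic members was not tested. In eWAT 1 of 77 was higher with Cort on each diet, Mrpl12 on the NPD and Mrpl50 on the HPD.

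Of the 19 translation factors and other proteins with TOP mRNAs, 4 were lower with Cort in liver on the HPD (median -0.32), where 5.14% of all genes were. They were Eif3f, an initiation factor subunit, at -0.72 (SE 0.16), the elongation factors Eef1a1 at -0.53 (SE 0.14) and Eef2 at -0.63 (SE 0.17), and Eif4b at -0.55 (SE 0.16). On the NPD 1 was lower, Btf3 of the nascent chain complex, at -1.55 (SE 0.34), with a median of -0.27. On the HPD against the NPD in Cort livers Btf3 was higher at 1.40 (SE 0.34), and Eef2 at -0.61 (SE 0.16), Vim at -0.79 (SE 0.21) and Eif3f at -0.50 (SE 0.15) were lower. In eWAT 1 was higher on each diet, the filament protein Vim at 0.61 (SE 0.14) and 0.95 (SE 0.14). Of 41 ribosome biogenesis factors, 0 were called in liver on the NPD and 2 were lower on the HPD, Rrs1 at -0.65 (SE 0.18) and Ubtf, a factor for transcription of ribosomal RNA, at -0.63 (SE 0.17). In Cort livers Sbds, which readies the large subunit for joining, was higher on the HPD than on the NPD at 0.67 (SE 0.18). In eWAT, 3 were higher with Cort on the NPD, Bysl at 1.19 (SE 0.22), Gnl3 at 0.79 (SE 0.16) and Nolc1 at 0.71 (SE 0.18), and Bysl also on the HPD at 0.95 (SE 0.22).

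Of 25 initiation factors, Eif1a was higher with Cort in eWAT on the NPD at 1.21 (SE 0.13) and on the HPD at 1.07 (SE 0.13). Eif4g1 was higher there on the NPD at 0.52 (SE 0.12) and Eif4g2 on the HPD at 0.37 (SE 0.11). In liver the cap-binding protein Eif4e was higher on both diets, at 0.50 (SE 0.13) and 0.58 (SE 0.14). Of 29 genes of TOR signalling, Rragc at 0.51 (SE 0.12) and the S6 kinase Rps6kb1 at 0.34 (SE 0.11) were higher with Cort in eWAT on the NPD, and Larp1 at 0.50 (SE 0.13) on the HPD. In liver, Depdc5, an inhibitor of the pathway, was higher on the NPD at 0.98 (SE 0.31), and Deptor, another inhibitor, was lower on the HPD at -0.57 (SE 0.14). Of 274 pseudogenes named after members, 45 passed the filter in eWAT and 31 in liver, and 0 were called with Cort on either diet. Their medians with Cort were -0.20 on the NPD and -0.29 on the HPD in eWAT, and -0.39 and -0.08 in liver.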

How the data were processed

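The authors made raw counts for each Ensembl gene from QuantSeq 3′ libraries and deposited them without normalization, 1 column per library, with 0 columns unused. Per the labels' processing notes the builds are GRCm38 and mm10 and the tools include R 4.0.3 and limma. The aligner, the counting program, the annotation and the handling of duplicate reads are not given in the sources used here, so the splitting of reads between members and their pseudogenes is unknown. Symbols, biotypes and positions came from GENCODE vM21 (47224 of 47643 gene IDs matched), start sites from RefSeq.

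The tools were edgeR 4.0.16 and limma 3.58.1, run under R 4.3.3. Genes passing filterByExpr (minimum count 10, minimum total 15) were scaled by TMM and tested with the quasi-likelihood test, with 1 mean per group and no covariate, in eWAT (16 libraries), liver (15) and both (31). TMM factors were 0.928 to 1.06 in eWAT, 0.754 to 1.11 in liver and 0.518 to 1.52 in the joint fit. Genes with a Benjamini-Hochberg adjusted p under 0.05 were called. Depth was 8933307 to 18057936 counts. Over 48 pairs of replicates the chi-squared statistic per gene was 15.3 to 206.5, above the 1 that counting noise gives, and 0 pairs held identical counts. The procedure was tested on simulated counts.

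Alternatives were RLE factors, library totals, scaling without the members, DESeq2 1.42.0, limma voom, no filter and pseudogene counts added to their parents. Others were only the groups compared, all liver libraries, the replicate number as a block and each library left out. In the joint fit the block was treatment, diet and replicate number together. Named genes were the members called with the smallest p (up to 5 in a direction), the stalk proteins, Rpsa, Rps6, Rpl5, Rpl11, Rps27a, Rpl13a, Rpl41 and the paralogs, and up to 3 called genes of each list. Rps24, Rpl13, Rps12, Rps19, Rps25, the least coupled members and the other members of called sets were named after their values were seen. Single values of some members are not reported here. Members and lists were chosen with earlier results of these data known.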

Additional observations from a re-analysis of the deposited data

Results flagged for a closer look

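In 4 of 58 sets of 4 values tested, 1 library lay far from the other 3. A set held the values of 1 group for a sum of the members or for a single member. For independent sets chance gives about 1 in 20. These sets reuse the same libraries, and both sums of eWAT Veh HPD replicate 4 are among the 4, so the numbers are not compared. In eWAT Veh HPD, replicate 4 had a summed level of the members of 33642 CPM against 22048 to 23185 CPM in the others, and 3.25% of its counts against 2.30% to 2.38%. In liver Cort HPD, replicate 1 had a summed level of 22612 CPM against 14519 to 15780 CPM. Rps23 in eWAT Cort NPD was at 57.5 CPM in replicate 1 and at 74.5 to 76.9 CPM in the others.

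The Cort effect differed between the tissues, by the test of the difference itself, for Rpl7l1 (-0.65, liver minus eWAT on the log2 scale), Rpl22l1 (-0.80), Rplp0 (-0.59), Rpl10a (-0.73), Rpl28 (-0.64) and Rpl19 (-0.55). Outside the comparisons, members held 2.99% of the counts of liver Veh HPD replicate 4, against 2.05% to 2.32% in the 3 other libraries of its group. After scaling with its TMM factor of 1.45 the sum was 20649 CPM, within the 18553 to 23415 CPM of those 3, so it stood apart only as percent of counts. In that library 3 of 84 members were above every other liver library (Rpl38, Rpl39l and Rpl41, named after their values were seen) and 0 were below. Its levels were scaled with all 16 liver libraries and the others with 15. The margins were small: 341 against 329 CPM for Rpl38, 295 against 291 CPM for Rpl41 and 0.716 against 0.632 CPM for Rpl39l. The share over all genes is not given, so this is not read as a result about the members.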

How the results depend on the processing

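With library totals the number of members called was 9 for Cort in eWAT on the NPD, 31 for Cort in liver on the HPD (median -0.51), 5 for diet in Cort livers, 38 for liver against eWAT (median 0.087) and 14 for the tissue difference of the Cort effect, and the median of the liver interaction was -0.018. DESeq2 called 1 for Cort in eWAT on the HPD and 1 for diet in Cort livers, and limma voom called 2 for Cort in eWAT on the NPD. With only the groups compared, the numbers were 8 for Cort in eWAT on the NPD, 33 for Cort in liver on the NPD and 1 for Cort in liver on the HPD. The cause was not tested. Counts of members called under the alternatives are given without the share of all genes called in that setting. This holds for library totals, DESeq2, limma voom and the fits without single libraries alike. Such counts are therefore not read as results about the members. Without single libraries the numbers called were 1 to 9 and 0 to 3 for Cort in eWAT on the NPD and HPD, 7 to 37 and 0 to 11 for Cort in liver, 0 to 2 for diet in Cort livers and 4 to 11 for the tissue difference.

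Whether same-numbered libraries pair cannot be told from these values. Their deviations correlated over 0.1 in 1 of 24 pairs within eWAT, 6 of 21 within liver and 1 of 15 between the tissues. For libraries of different numbers this was 5 of 72, 11 of 63 and 0 of 45. Between the tissues the median correlation was 0.029 for same numbers and -0.017 for different ones. With the replicate number as a block, 1 member was called for Cort in liver on the HPD. In the joint fit the block joined the eWAT and liver libraries of the same treatment, diet and number, as if from 1 animal. There 13 members were called for the tissue difference, against 6 in the main fit. No other number of calls moved by over 1.5 times. For 34 called values of single members given in the text, 1014 values under alternatives kept the direction and the call and 85 kept the direction but not the call. The fold of Rplp0 in liver against eWAT reversed, to -0.65 with library totals. Library totals also moved the share of lower calls among all called genes in comparisons with 0 members called. It went from 77.8% to 62.5% for diet in Veh eWAT and 58.1% to 46.6% in Cort eWAT. In Veh livers it went from 38.1% to 21.4%, and for the liver interaction from 50% to 78.3%. These shares rest on few calls. With TMM factors there were 2 higher and 7 lower, 31 and 43, 13 and 8, and 7 and 7, in that order. Depth limits Rps6, Rpl24 and the 3 paralogs with few counts.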
